A study of Mus musculus with 45 samples.

Results

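Tal1, Lyl1, Tcf3, Lmo2, Ldb1, Cbfa2t3 and Gfi1b encode 7 transcriptional regulators of blood formation: the core members of the Tal1 (SCL) complex, the related factor Lyl1, and the repressor Gfi1b. They were chosen by symbol, and all 7 were found among the 13449 genes of the deposited table of normalized mRNA counts. The study measured mRNA in fetal mouse livers at stage E15.5, in 45 libraries of 16 groups, 24 of them cytoplasmic and 21 polysomal, the latter taken from sucrose gradients. All fetuses were heterozygous for a floxed ribosomal protein gene, either Rpl5 (large subunit) or Rps19 (small subunit), with or without VavCre, so the 4 genotypes were Rpl5flox/+, VavCre Rpl5flox/+, Rps19flox/+ and VavCre Rps19flox/+. VavCre is a recombinase driven by the Vav promoter, which is active in blood cells, so other liver cells keep both alleles, and there was no group with VavCre and no floxed allele. Liver cells were treated with the elongation inhibitor emetine (25 µg/mL, 15 min) and taken with magnetic beads as Kit+ cells (stem and progenitor cells) or, from the remainder, as Ter119+ cells (maturing erythroid cells). Cells of several fetuses were pooled by genotype in equal number, and each pool gave the libraries of its fractions, so p-values measure the spread between pools. The groups held 3 libraries each, except for VavCre Rpl5flox/+ Kit+ polysome with 1 and Rpl5flox/+ Ter119+ polysome with 2.

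Tal1 is a basic helix-loop-helix (bHLH) factor that binds E-box DNA together with an E protein such as the product of Tcf3. The LIM-domain protein Lmo2 and its dimerising partner Ldb1 bridge this pair to a GATA factor on a neighbouring GATA motif, and the ETO-family protein Cbfa2t3 (ETO2) brings corepressors to the complex, so that the same complex can restrain or drive erythroid genes. Lyl1 is the closest relative of Tal1 and can take its place in part, and Gfi1b is a zinc-finger repressor needed for erythroid and megakaryocytic cells that works through Kdm1a and Rcor1.

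Promoter sequence was read from RefSeq (GRCm38.p6) as the 250 bases before each listed transcription start, which gave 10 windows for 6 of the 7 genes, with no entry for Lmo2. The windows of Tal1 (first of its starts, chr4:115056176-115056425, plus strand) and Gfi1b (chr2:28621983-28622232, minus strand) are shown because they lie wholly outside the annotated gene and each holds 1 GATA motif. Capitals mark the GATA motifs (AGATAA as well as TGATAA) and the E-box motif (CANNTG) on either strand. The sequence runs 5′ to 3′ toward the start.
Tal1: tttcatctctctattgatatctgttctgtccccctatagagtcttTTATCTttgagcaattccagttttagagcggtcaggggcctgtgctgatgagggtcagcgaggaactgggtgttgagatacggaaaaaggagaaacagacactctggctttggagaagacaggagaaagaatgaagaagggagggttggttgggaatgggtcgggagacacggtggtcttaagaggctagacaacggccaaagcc
Gfi1b: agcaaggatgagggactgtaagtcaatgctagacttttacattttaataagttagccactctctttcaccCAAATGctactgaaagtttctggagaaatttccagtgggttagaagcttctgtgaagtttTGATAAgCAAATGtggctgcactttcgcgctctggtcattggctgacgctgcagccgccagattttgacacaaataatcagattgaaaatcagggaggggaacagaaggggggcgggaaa
In the Tal1 window the match was AGATAA read on the opposite strand, 205 bases before the start, with no CANNTG. The Gfi1b window held TGATAA at 120 bases before the start, between CANNTG at 180 and 113 bases. The window of the first Cbfa2t3 start held TGATAA at 118 bases and 4 CANNTG, 2 of them CAGCTG, and that of the last Ldb1 start held 2 AGATAA and 1 CANNTG. Lyl1 and Tcf3 had 1 CANNTG each, at 235 and 54 bases, and neither GATA motif. No window of these genes held CTG, 7 or 8 other bases and AGATAA in a row, or AATCAC, a core of the Gfi1b site. Over all 32851 windows of this length, 9.99% held AGATAA, 7.94% TGATAA, 66.2% CANNTG, 13% CAGCTG, 0.51% the spaced pair and 9.14% AATCAC, on either strand, with CAGCTG also counted as CANNTG. Over the 13519 windows of genes in the table the shares were lower, 6.3% for AGATAA, 4.14% for TGATAA and 58.2% for CANNTG. A match is a description of these letters and no measure of binding.

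In the same annotation Tal1 lies at chr4:115056426-115071755, Lmo2 at chr2:103957903-103981878, Ldb1 at chr19:46031525-46048145, Lyl1 at chr8:84701423-84704716, Cbfa2t3 at chr8:122625136-122699332, Tcf3 at chr10:80409541-80433976 and Gfi1b at chr2:28609450-28621982. Lyl1 overlaps Nfix, also in the table. Tal1, Lmo2, Cbfa2t3 and Gfi1b overlap Gm33786, Gm38515, Gm10612 and Gm52548 in turn, which are not in the table. Whether strand was used in counting is not given in the sources used here. The counts of all these genes are therefore less certain than those of Ldb1 and Tcf3, which overlap no annotated gene.

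Sequencing depth was 22.9 to 70.1 M reads per library in Kit+ cytoplasm, 45.0 to 123 M in Ter119+ cytoplasm, 1.01 to 37.6 M in Kit+ polysomes and 1.02 to 39.8 M in Ter119+ polysomes, and 4 polysome libraries were under 2 M. In Kit+ cytoplasm the targeted mRNAs fell with VavCre, Rpl5 by 0.97 on the log2 scale (adjusted p = 0.000287) and Rps19 by 0.48 (adjusted p = 0.00191). Rpl5 was also lower there in the other line, at 491 to 748 normalized counts in VavCre Rps19flox/+ against 866 to 1042 in Rps19flox/+. In Ter119+ cytoplasm Rpl5 was at 295 to 459 normalized counts in Rpl5flox/+ and at 455 to 549 in the libraries labelled VavCre Rpl5flox/+. That was a rise of 0.44 (adjusted p = 0.0278), where the label would give a fall. In the same libraries Rps19 was also higher, at 24156 to 24496 against 10219 to 13241. The 6 progenitor markers summed there to 2703 to 2728 against 285 to 642. The part of cell composition in the Rpl5 level was not tested. The label is kept, and these are called labelled libraries below. In the Rps19 line, Rps19 in Ter119+ cytoplasm had a log2 change of -0.21 (adjusted p = 0.302). Cdkn1a, a p53 target, rose in all 4 cytoplasm comparisons, by 4.99 to 6.39. The 8 maturing erythroid markers summed to 88620 to 154631 normalized counts in control Kit+ cytoplasm and to 7548554 to 18635475 in control Ter119+ cytoplasm, and 6 progenitor markers to 3745 to 4882 and 285 to 642, with none of either list at 0.

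In control cells without VavCre, 5 of the 7 mRNAs were higher in Ter119+ than in Kit+ cytoplasm: Tal1, Lyl1, Lmo2, Cbfa2t3 and Gfi1b. A normalized count here is the number of reads of a gene divided by the size factor of its library, which allows a gene to be compared across libraries but not with another gene. Tal1 stood at 2521, 2895 and 2690 in the 3 Rpl5flox/+ Kit+ libraries and at 28431, 36021 and 23807 in the 3 Rpl5flox/+ Ter119+ libraries, and at 2991, 3002 and 2721 against 22709, 25685 and 17768 in the Rps19flox/+ libraries. The ranges lie far apart, and the fitted difference was 3.16 ± 0.11 (log2, SE, limma, adjusted p = 5.87e-12), or 8.94-fold. Lyl1 was at 1145 to 1528 in the 6 control Kit+ libraries and at 5563 to 8801 in the 6 Ter119+ libraries, a 4.9-fold difference (adjusted p = 6.29e-11). Lmo2 ranged from 3485 to 3773 and from 14740 to 24961, a 4.75-fold difference (adjusted p = 9.85e-11). Both pairs of ranges were apart.

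Cbfa2t3, the corepressor bridge, rose from 385 to 523 in control Kit+ to 774 to 1797 in Ter119+ cytoplasm, 2.38-fold (adjusted p = 2.34e-06). Gfi1b went from 1095 to 1586 up to 2436 to 4001, 2.43-fold (adjusted p = 8.58e-07). The constitutive partners moved little. Tcf3 was at 2958 to 3482 in Kit+ and 3395 to 3903 in Ter119+ libraries, with a log2 difference of 0.13 (95% CI -0.02 to 0.29, adjusted p = 0.103), and the ranges overlapped, although with the libraries rescaled to each other it passed (0.21, adjusted p = 0.0301). Ldb1 was at 2936 to 3247 and 2372 to 3083, lower by 0.18 on the log2 scale (adjusted p = 0.0421), a call that was lost in 10 of 18 alternative settings, with adjusted p from 0.0202 to 0.274, among them those without any 1 of the 6 Kit+ libraries or without replicate 2 of either Ter119+ group. Of all 10867 genes tested, 78.5% passed in this comparison and 35.8% were higher, so 6 of 7 called is not far from the background, and 5 of 7 higher stands beside a median log2 difference of 1.28 for the 7 genes and -0.13 over all genes. In bulk libraries such as these, fewer cells of a type and less RNA per cell cannot be told apart.

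**Figure D1:**
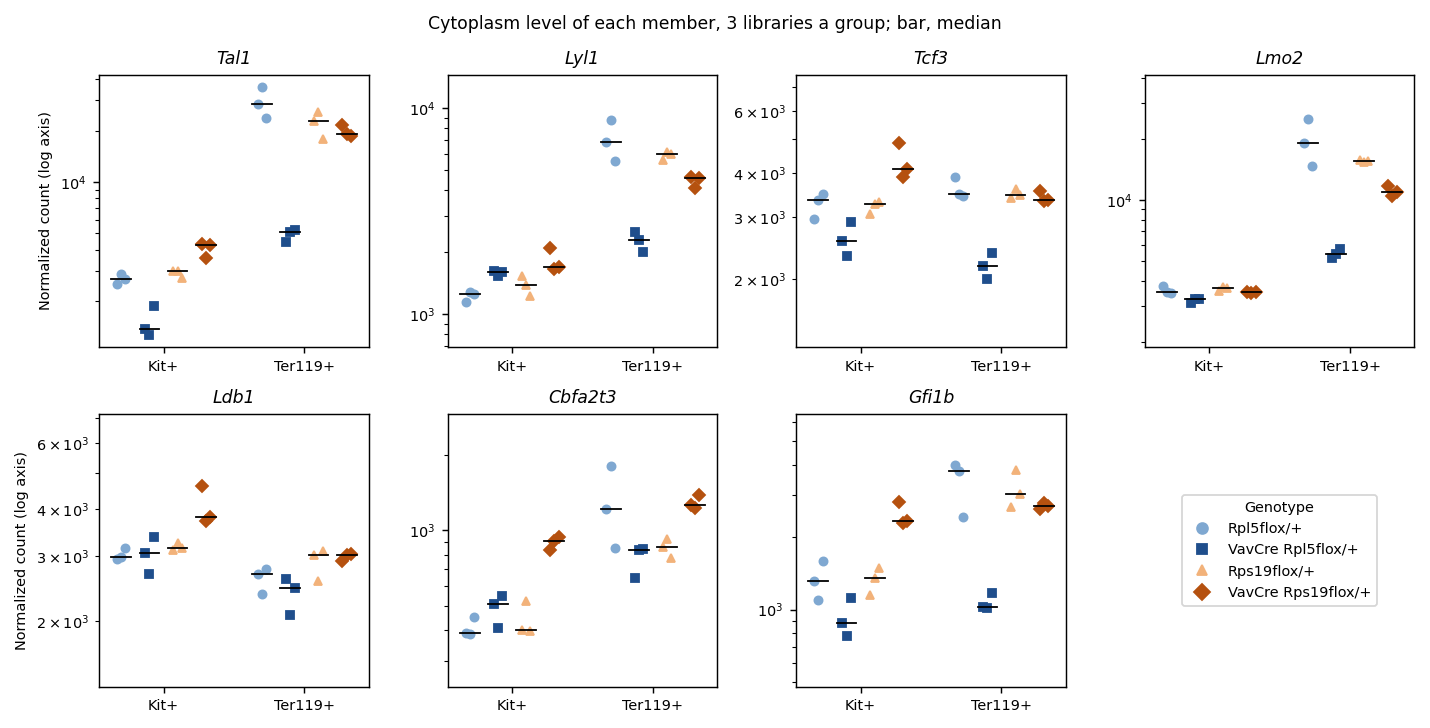
Normalized count of each gene (log axis, scaled per panel) in the 24 cytoplasm libraries, by cell type and genotype, with a bar at each group's median. In the Ter119+ columns the libraries labelled VavCre Rpl5flox/+ sit at 4441 to 5209 for Tal1, against 23807 to 36021 in Rpl5flox/+.

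In Kit+ cytoplasm of VavCre Rpl5flox/+ fetuses, Tal1, Gfi1b and Tcf3 were lower than in Rpl5flox/+ and Lyl1 was higher. Tal1 was at 1368, 1264 and 1875 normalized counts with VavCre, against 2521, 2895 and 2690 without it. The groups did not overlap, and Tal1 fell 1.81-fold (log2 change -0.86 ± 0.13, SE, adjusted p = 0.000176), which put it in the lowest 3.05% of all genes tested. Gfi1b was at 881, 778 and 1116 against 1318, 1095 and 1586, with the highest VavCre library just above the lowest control (log2 change -0.52 ± 0.15, adjusted p = 0.0157). Tcf3 was at 2575, 2326 and 2900 against 2958, 3351 and 3482 with no overlap (-0.33 ± 0.10, adjusted p = 0.0209). Lyl1 was at 1621, 1533 and 1606 against 1145, 1289 and 1248, again with no overlap and in the other direction (0.37 ± 0.10, adjusted p = 0.012).

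Lmo2, Ldb1 and Cbfa2t3 did not pass the test in these cells. Lmo2 was at 3123 to 3246 against 3485 to 3773, which do not overlap, with a small log2 change of -0.17 (95% CI -0.30 to -0.03, adjusted p = 0.0532), which passed with rescaled libraries (adjusted p = 0.0435). Ldb1 had a log2 change of 0.00 (CI -0.21 to 0.21, adjusted p = 0.996) and Cbfa2t3 of 0.25 (CI -0.03 to 0.53, adjusted p = 0.149). The 4 of 7 called compare with 37.2% of all genes tested, and the median log2 change was -0.17 for the 7 genes and 0.03 over all genes. Of the 4 calls only that of Tal1 held in all 13 alternatives: without VavCre replicate 1 the adjusted p was 0.0529 for Gfi1b and 0.057 for Tcf3, without VavCre replicate 2 0.0805 and 0.101, and without Rpl5flox/+ replicate 3 0.0806 and 0.0828. Without Rpl5flox/+ replicate 2 the Tcf3 value was 0.0611, and without Rpl5flox/+ replicate 1 that of Lyl1 was 0.0549. Beside these changes the 8 maturing erythroid markers summed to 37514 to 45188 with VavCre against 96115 to 128922, the 10 granulocyte and monocyte markers to 52386 to 100417 against 25523 to 28191, the 7 B-lymphoid markers found to 264 to 348 against 1168 to 1533, and the 7 hepatocyte markers to 20221 to 37194 against 5272 to 17013, none of them at 0. Their part in the result was not tested.

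In Ter119+ cytoplasm 6 of the 7 mRNAs were lower in the libraries labelled VavCre Rpl5flox/+ than in Rpl5flox/+, with Tal1 lowest. Tal1 was at 4441, 5093 and 5209 normalized counts against 28431, 36021 and 23807, a 5.9-fold difference (log2 change -2.56 ± 0.18, SE, adjusted p = 6.9e-08) that lay in the lowest 1.33% of all genes. The highest labelled VavCre library was well under the lowest control. Lyl1 was at 2503, 2306 and 2015 against 6861, 8801 and 5563 (3.05-fold lower, adjusted p = 1.06e-06). The sign for Lyl1 is thus opposite to that in Kit+ cells of the same genotype. Tcf3, the E protein, was at 2183, 2012 and 2372 against 3903, 3493 and 3443, a smaller fall of 1.65-fold without overlap (adjusted p = 5.28e-05).

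Lmo2, the LIM bridge, was at 5164, 5417 and 5721 against 19016, 24961 and 14740 (3.52-fold lower, adjusted p = 6.24e-07), whereas its partner Ldb1 was at 2597, 2086 and 2465 against 2684, 2372 and 2768, with overlapping ranges and a log2 change of -0.13 (CI -0.40 to 0.13, adjusted p = 0.351). Gfi1b was at 1022, 1020 and 1172 against 4001, 3786 and 2436 (3.09-fold lower, adjusted p = 3.43e-06). Of these Gfi1b levels 2 lie within the range of the VavCre Rpl5flox/+ Kit+ libraries, 778 to 1116, and 1 just above it. Cbfa2t3 was at 644, 834 and 840 against 1212, 1797 and 849, which nearly touch, and its fall of 0.67 ± 0.21 (adjusted p = 0.0124) did not pass without labelled VavCre replicate 1 (adjusted p = 0.0588) or without Rpl5flox/+ replicate 2 (adjusted p = 0.06). Among the 3 Rpl5flox/+ Ter119+ libraries replicate 2 was highest for Tal1, Lyl1, Lmo2 and Cbfa2t3 and replicate 3 lowest.

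Of all genes tested in Ter119+ cytoplasm, 65.5% passed in the Rpl5 line and 30.1% were lower, so that 6 of 7 lower is above that share, and the median log2 change was -1.61 for the 7 genes and 0.16 over all genes. The other calls held in all 13 alternatives. In the same libraries the maturing erythroid markers summed to 2226089 to 3816652 against 7548554 to 18635475, the progenitor markers to 2703 to 2728 against 285 to 642, and the granulocyte and monocyte markers to 42709 to 88257 against 7592 to 14037. All markers of these lists were detected, and the share of the change that goes with them was not tested.

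**Figure D2:**
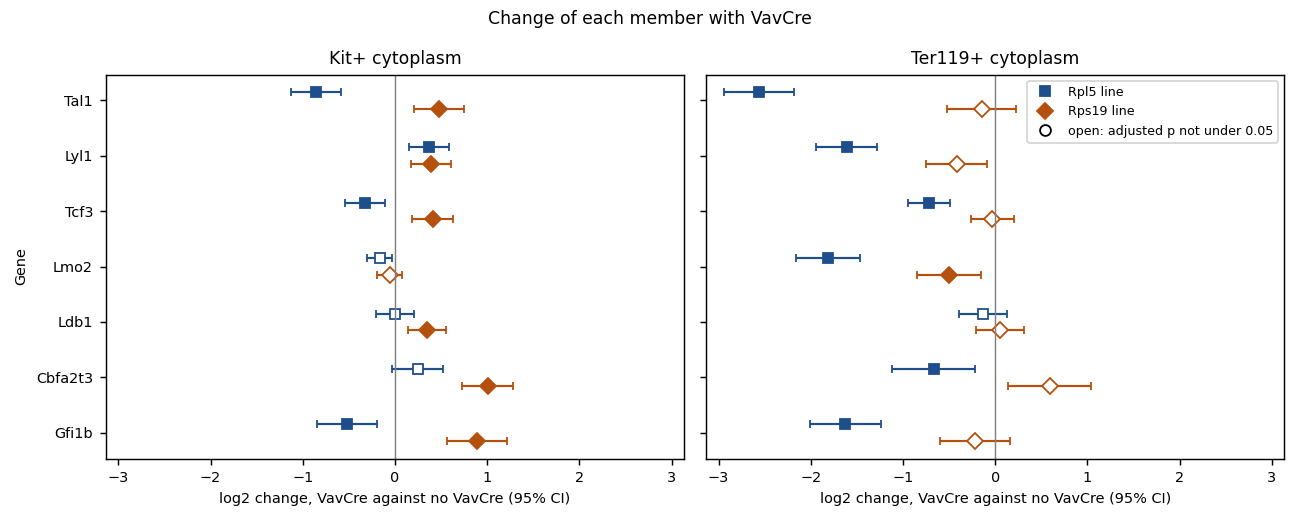
Fitted log2 change of each gene with VavCre in the Rpl5 line (squares) and the Rps19 line (diamonds), with 95% confidence intervals, in Kit+ and Ter119+ cytoplasm; open symbols have an adjusted p not under 0.05. In Kit+ cells the 6 called changes of the Rps19 line are to the right of 0, and in Ter119+ cells the 6 called changes of the Rpl5 line are to the left.

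In Kit+ cytoplasm of VavCre Rps19flox/+ fetuses, 6 of the 7 mRNAs were higher than in Rps19flox/+, led by Cbfa2t3 and Gfi1b. Cbfa2t3 was at 831, 909 and 938 normalized counts with VavCre against 400.1, 523 and 396, a 2.01-fold rise (log2 change 1.01 ± 0.13, SE, adjusted p = 3.36e-05). Gfi1b was at 2802, 2291 and 2343 against 1150.2, 1356 and 1496, a 1.85-fold rise (adjusted p = 0.000295). For both genes the lowest VavCre library was well above the highest control. Tal1 was at 4316, 3579 and 4289 against 2991, 3002 and 2721 (1.39-fold higher, adjusted p = 0.00587). Tcf3 was at 4851, 3889 and 4115 against 3068, 3271 and 3307 (1.33-fold, adjusted p = 0.00416). The bHLH relative Lyl1 was at 2104, 1663 and 1694 against 1528, 1383 and 1230 (1.31-fold, adjusted p = 0.00537). Ldb1 was at 4615, 3719 and 3801 against 3102, 3247 and 3156 (1.27-fold, adjusted p = 0.00819). None of these 4 pairs of ranges overlapped, and VavCre replicate 1 was highest in each. Lmo2 was the exception, at 3528, 3487 and 3525 against 3560, 3719 and 3680, with a log2 change of -0.06 (CI -0.19 to 0.08, adjusted p = 0.474).

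All 6 calls held in all 13 alternatives. Of the 10908 genes tested 53.7% passed and 27.6% were higher, and the median log2 change was 0.41 for the 7 genes and 0.01 over all genes. In the same libraries the granulocyte and monocyte markers summed to 3764 to 7941 with VavCre against 17961 to 23283, the 7 B-lymphoid markers found to 24.7 to 46.3 against 579 to 1265, the 9 megakaryocyte and platelet markers to 429 to 499 against 986 to 1051, and the maturing erythroid markers to 50512 to 86650 against 88620 to 154631. None of these markers was at 0, and their part in the rise of the 7 genes was not tested.

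In Ter119+ cytoplasm of VavCre Rps19flox/+ fetuses most of the group was near its controls. Only Lmo2 passed, at 11705, 10420 and 10913 normalized counts against 15769, 15319 and 15601, a fall of 0.50 ± 0.16 (log2, SE, adjusted p = 0.0367) without overlap. That call did not stand in any of the 6 fits without 1 library (adjusted p 0.0582 to 0.113), though its value moved only between -0.46 and -0.55. Lyl1 was at 4624, 4100.1 and 4597 against 5634, 6134 and 6040, also without overlap (-0.42, CI -0.75 to -0.09, adjusted p = 0.0591), and Cbfa2t3 was at 1257, 1228 and 1381 against 859, 922 and 774, higher in each VavCre library (0.59, CI 0.14 to 1.04, adjusted p = 0.0537). Neither passed in the main test, but Cbfa2t3 passed with rescaled libraries (adjusted p = 0.0432), with limma-voom (0.0483), with a replicate block (0.0314) and with only the 2 groups compared (0.00837), and Lyl1 with the last 2 of these (0.0267 and 0.0141). Tal1, at 18634 to 21518 against 17768 to 25685, had a log2 change of -0.15 (CI -0.52 to 0.23, adjusted p = 0.565) and Gfi1b one of -0.22 (CI -0.60 to 0.16, adjusted p = 0.39). Tcf3 had one of -0.03 (CI -0.26 to 0.20, adjusted p = 0.851) and Ldb1 one of 0.05 (CI -0.21 to 0.31, adjusted p = 0.787), all with overlapping ranges. The 1 of 7 called compares with 25.8% of all genes tested. The maturing erythroid markers summed to 5615703 to 6079292 with VavCre against 9246029 to 9849622, the progenitor markers to 754 to 1035 against 397 to 454 and the granulocyte and monocyte markers to 2107 to 3482 against 6998 to 12956, and their part was not tested.

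The lines were compared with each other as the change with VavCre in the Rpl5 line minus that in the Rps19 line, each against its own controls. In Kit+ cytoplasm Gfi1b (-1.41 ± 0.21, log2, SE, adjusted p = 0.000169), Tal1 (-1.34 ± 0.18, adjusted p = 6.75e-05), Cbfa2t3 (-0.76 ± 0.18, adjusted p = 0.0039) and Tcf3 (-0.74 ± 0.14, adjusted p = 0.00097) changed differently, being lower in the Rpl5 line. For Tal1, Tcf3 and Gfi1b the separate changes had opposite signs and each passed. The difference was -0.02 for Lyl1 (CI -0.33 to 0.29), -0.11 for Lmo2 (CI -0.30 to 0.08) and -0.34 for Ldb1 (CI -0.64 to -0.05, adjusted p = 0.0503), which passed without VavCre Rpl5flox/+ replicate 3 (adjusted p = 0.02), VavCre Rps19flox/+ replicate 2 (0.0318) or 3 (0.0471). Among all genes 48.2% passed and 25% were lower, so 4 of 7 lower is above that share. In Ter119+ cytoplasm the same 4 genes and also Lmo2 and Lyl1 were lower in the Rpl5 line, from -0.69 (Tcf3) to -2.41 (Tal1), with adjusted p from 2.51e-05 to 0.00444, and Ldb1 differed by -0.18 (CI -0.55 to 0.19, adjusted p = 0.416). There 41.5% of all genes passed and 20.9% were lower. The Tal1 difference lay in the lowest 0.466% of all genes.

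The rise from Kit+ to Ter119+ cells was also compared between genotypes, again in cytoplasm. In the Rpl5 line 6 of the 7 genes rose less, or fell more, with VavCre than without it. The difference in the step was -1.98 ± 0.18 for Lyl1 (log2, SE, adjusted p = 7.44e-08), -1.70 ± 0.22 for Tal1 (adjusted p = 2.51e-06), -1.65 ± 0.17 for Lmo2 (adjusted p = 1.93e-07), -1.11 ± 0.25 for Gfi1b (adjusted p = 0.000863), -0.92 ± 0.26 for Cbfa2t3 (adjusted p = 0.00599) and -0.39 ± 0.14 for Tcf3 (adjusted p = 0.0254). These values compare the cell types as labelled, and the Ter119+ side carries the labelled libraries in which Rpl5 was not lower. Tal1 still rose, from 1264 to 1875 in VavCre Rpl5flox/+ Kit+ up to 4441 to 5209 in the labelled Ter119+ libraries, whereas Gfi1b overlapped, from 778 to 1116 against 1020.2 to 1172. The Tcf3 call did not pass without Rpl5flox/+ Kit+ replicate 1, Rpl5flox/+ Ter119+ replicate 1, labelled VavCre Ter119+ replicate 2 or VavCre Kit+ replicate 3, with adjusted p up to 0.085. For Ldb1 the difference was -0.13 (CI -0.45 to 0.18). Over all genes 48.4% passed and 22.6% were lower.

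In the Rps19 line 3 of the 7 genes had a smaller step with VavCre: Gfi1b (-1.11 ± 0.25, log2, SE, adjusted p = 0.0069), Lyl1 (-0.81 ± 0.18, adjusted p = 0.00785) and Tcf3 (-0.44 ± 0.14, adjusted p = 0.0439). Gfi1b went from 2291 to 2802 in VavCre Kit+ to 2620 to 2774 in VavCre Ter119+ libraries, which overlap, while its Rps19flox/+ levels went from 1150.2 to 1496 up to 2672 to 3789. The starting level in Kit+ cells was thus the higher one, and the Ter119+ levels overlapped. The Gfi1b difference lay in the lowest 1.72% of all genes and was of the same size as in the Rpl5 line, where instead the Ter119+ level was low. The Tcf3 call failed in 12 of 18 alternatives, with adjusted p up to 0.132, among them the fits without any 1 library other than Rps19flox/+ Ter119+ replicate 1 or VavCre Kit+ replicate 2. Tal1 had -0.63 (CI -1.07 to -0.18, adjusted p = 0.0607), which passed without VavCre Kit+ replicate 2 (adjusted p = 0.0439) or without Rps19flox/+ Ter119+ replicate 3 (0.0213). Over all genes 12.3% passed and 8.35% were lower, so 3 of 7 lower is above that share.

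**Figure D3:**
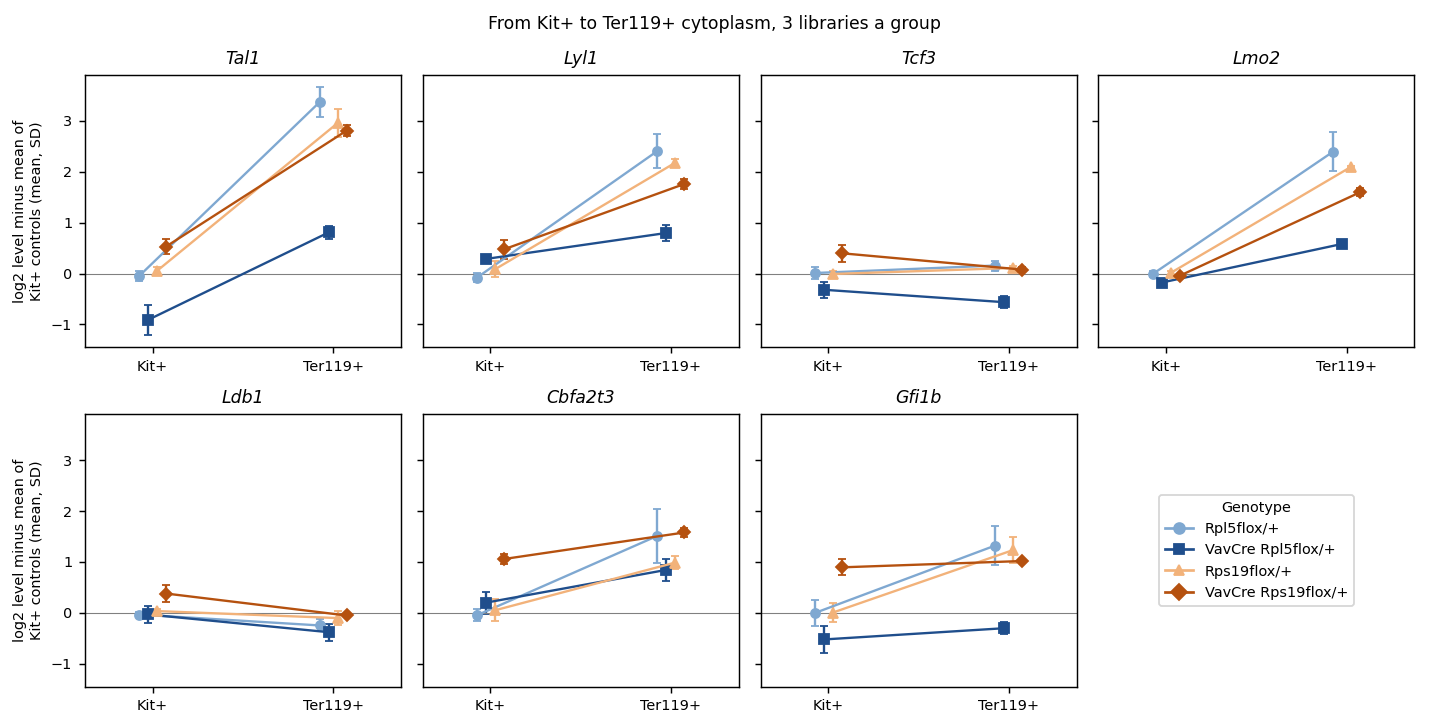
Deposited log2 level of each gene in Kit+ and Ter119+ cytoplasm, minus the mean of the 6 control Kit+ libraries, as the mean and SD of 3 libraries a group. The line of the labelled VavCre Rpl5flox/+ libraries ends lowest for all 7 genes, and that of VavCre Rps19flox/+ starts highest for each gene but Lmo2.

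Ordered by their medians over the 8 cytoplasm groups, the genes fell into 3 patterns. Tal1 had all 4 Ter119+ groups above all 4 Kit+ groups, with the labelled VavCre Rpl5flox/+ Ter119+ libraries (median 5093) just above VavCre Rps19flox/+ Kit+ (median 4289). Lmo2 and Lyl1 had the same split, although for Lyl1 the labelled VavCre Rpl5flox/+ Ter119+ range of 2015 to 2503 overlapped that of VavCre Rps19flox/+ Kit+, 1663 to 2104. For Gfi1b the labelled libraries came next to last, below both control Kit+ groups with medians of 1356 and 1318, though its range overlapped both of theirs. For Cbfa2t3 the group VavCre Rps19flox/+ Kit+ came after VavCre Rps19flox/+ Ter119+ and Rpl5flox/+ Ter119+ (median 909), with a range that overlapped those of its neighbours on both sides. Tcf3 and Ldb1 had VavCre Rps19flox/+ Kit+ on top (medians 4115 and 3801) and labelled VavCre Rpl5flox/+ Ter119+ at the bottom (2183 and 2465). For Ldb1 only the top group, and the gap after Rpl5flox/+ Kit+, were clear of the next group.

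Polysome levels of controls were set against the cytoplasm of the same pool. In the 6 control Kit+ pools Tal1 was lower on polysomes in each, with log2 differences of -1.97 to -1.42 (fitted -1.70 ± 0.17, SE, adjusted p = 9.3e-05). Lmo2 fell in 6 of 6 pools (-1.77 ± 0.29, adjusted p = 0.0015) and so did Tcf3 (-0.86 ± 0.16, adjusted p = 0.00295), while Gfi1b (0.53 ± 0.16, adjusted p = 0.0265) and Lyl1 (0.48 ± 0.18, adjusted p = 0.0489) were higher on polysomes in 6 of 6. Over all genes the median of this difference was -1.32, so that Tal1 and Lmo2 stood at the 39.4 and 37.7 percentile of all genes and Gfi1b and Lyl1 at 88.8 and 88.1. Ldb1 (-0.07, CI -0.50 to 0.35, adjusted p = 0.751) and Cbfa2t3 (-0.57, CI -1.35 to 0.21, adjusted p = 0.195) did not pass. The 5 of 7 called compare with 45.1% of all genes. The Lyl1 call failed without Rpl5flox/+ polysome replicate 1 or 2 or Rps19flox/+ polysome replicate 1 or 2, with adjusted p from 0.068 to 0.136. It also failed with no filter (0.0502) and with log2 of the count plus 1 (0.0525). That of Gfi1b failed without Rpl5flox/+ replicate 2 or 3 or Rps19flox/+ replicate 3, with adjusted p from 0.0514 to 0.0616. It failed too with limma-voom (0.0736) and without the libraries under 2 M reads (0.0644). These were Rpl5flox/+ replicate 3 (1.81 M) and Rps19flox/+ replicates 1 and 3 (1.01 and 1.83 M).

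In the 5 control Ter119+ pools with both fractions, Cbfa2t3 was furthest below its cytoplasm level, with differences of -2.90 to -1.08 in 5 of 5 pools (fitted -1.80 ± 0.32, adjusted p = 0.00333), at the 9.28 percentile of all genes. On polysomes its Rps19flox/+ libraries held 25, 143 and 12 reads of the gene, so these values are coarse. Tal1 (-1.11 ± 0.19, adjusted p = 0.00291), Lmo2 (-0.86 ± 0.23, adjusted p = 0.021) and Tcf3 (-0.56 ± 0.18, adjusted p = 0.039) were also lower in 5 of 5 pools, and Ldb1 (-0.35), Gfi1b (-0.28) and Lyl1 (0.10) did not pass. The median over all genes was -0.66, 26.7% of them passed and 21.9% were lower. With the libraries rescaled to each other, 46.7% of the genes called were higher on polysomes in place of 18%, and Lmo2 (-0.48, adjusted p = 0.128) and Tcf3 (-0.18, adjusted p = 0.464) no longer passed. Lmo2 also failed without each of the 3 Rps19flox/+ pools (adjusted p 0.0534 to 0.0833), and Tcf3 without Rpl5flox/+ replicate 1 or 2 or Rps19flox/+ replicate 1 or 3 (0.0606 to 0.11).

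On control polysomes, Ter119+ cells had more Tal1 (14.5-fold, adjusted p = 8.64e-08), Lmo2 (10.2-fold, adjusted p = 8.28e-06) and Lyl1 (4.06-fold, adjusted p = 2.05e-05) than Kit+ cells. Tal1 was at 729 to 1043 normalized counts in the 6 Kit+ polysome libraries and at 5093 to 17999 in the 5 Ter119+ libraries, far apart. Gfi1b, at 1516 to 2675 against 2452 to 3810, had a log2 difference of 0.57 (CI 0.02 to 1.13, adjusted p = 0.135), Cbfa2t3 of 0.25 (adjusted p = 0.808), Tcf3 of 0.48 (adjusted p = 0.239) and Ldb1 of -0.46 (adjusted p = 0.225). With limma-voom Gfi1b passed (0.69, adjusted p = 0.0265). Without the libraries under 2 M reads, which leaves 1 Rps19flox/+ Kit+ polysome library, the Gfi1b difference was 0.76. Among all genes 23.3% passed and 16% were higher, with a median of 0.56.

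With VavCre the polysome levels could be tested with less precision. On Ter119+ polysomes labelled VavCre Rpl5flox/+, Tal1 was at 1068, 1502 and 640 normalized counts (170, 909 and 21 reads) against 17999 and 17853 in Rpl5flox/+, 17.5-fold lower (adjusted p = 0.000168). Lmo2 was at 1112, 1939 and 822 against 16321 and 21782 (15.4-fold lower, adjusted p = 0.00011). Lyl1 was at 3612, 3166 and 2040 against 6687 and 12741 (3.22-fold lower, adjusted p = 0.0112) and Tcf3 at 515, 1196 and 60.9 against 2862 and 2831 (adjusted p = 0.0382). None of these groups overlapped. The labelled VavCre replicate 3 held 1.02 M reads, so 1 read was worth 30.5 normalized counts, and it had 2 reads of Tcf3, 9 of Ldb1 and 0 of Cbfa2t3. Without it the fall was 3.81 for Tal1 and 3.67 for Lmo2 on the log2 scale, the Tcf3 change was -1.84 in place of -2.97 (adjusted p = 0.0054), and Gfi1b, at 1533, 1158 and 2650 against 2689 and 3810, passed (-1.26, adjusted p = 0.00743) where with it the change was -0.93 (adjusted p = 0.154).

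Ldb1 changed by -0.97 (CI -2.50 to 0.55, adjusted p = 0.39) on these polysomes with that library and by -0.03 without it, and Cbfa2t3 by -2.37 (CI -5.62 to 0.89, adjusted p = 0.322) and -0.33. The Tcf3 call did not hold without Rpl5flox/+ replicate 1 (-2.97) or 2 (-2.98), nor the Lyl1 call without Rpl5flox/+ replicate 2 (-1.22). These fits leave 1 control that is assumed to vary like the other groups. Tcf3 also failed with log2 of the count plus 1 (adjusted p = 0.0704), rescaled libraries (0.0546) and only the 2 groups compared (0.158). Lyl1 failed with the last of these (0.0539). Gfi1b passed with limma-voom (adjusted p = 0.0243) and with a replicate block (0.0175). Among all genes 13.2% passed and 10.3% were lower, and the median log2 change over all genes was -1.004, so the fall of Lyl1 stood at the 37.1 percentile of all genes and those of Tal1 and Lmo2 at 5.56 and 6.61. In the same libraries the maturing erythroid markers summed to 4531087 to 9098350 against 21538412 to 46666169 and the granulocyte and monocyte markers to 79393 to 194237 against 9788 to 15129, and their part was not tested.

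On Kit+ polysomes of VavCre Rps19flox/+ fetuses Tal1 was at 2477, 2570 and 3338 normalized counts against 789, 1043 and 741, 3.23-fold higher (adjusted p = 0.0049) and without overlap, but the median over all genes was 1.11 on the log2 scale against 1.69 for Tal1. Tcf3, at 2968 to 3334 against 1408 to 1919, was also clear of its controls (0.88, adjusted p = 0.0536), and it passed without the libraries under 2 M reads (1.15, adjusted p = 0.0127), a fit with 1 Rps19flox/+ library that is assumed to vary like the other groups. Gfi1b, at 1434 to 1525 against 1516 to 2660, and Cbfa2t3, at 226 to 306 against 249 to 572, did not show on polysomes the rise seen in the cytoplasm, with log2 changes of -0.36 (CI -1.02 to 0.30) and -0.32 (CI -1.58 to 0.94). Lmo2 (0.89), Ldb1 (0.00) and Lyl1 (-0.42) did not pass either, and 1 of 7 called compares with 9.86% of all genes. The Tal1 values of the 3 controls rested on 38, 545 and 56 reads. In these libraries the granulocyte and monocyte markers summed to 3047 to 7923 with VavCre against 34316 to 47158 and the 7 B-lymphoid markers found to 29.4 to 56.2 against 727 to 2742, with Rag1 at 0 in both groups. The gene Lars2 took 0.38% to 4.51% of reads with VavCre and 10.3% to 54.9% without it. Depth was 10.8 to 37.6 M reads with VavCre and 1.01 to 7.17 M without it. The part of these differences in the result was not tested.

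Of the other polysome comparisons, limma called none of the 7 genes for VavCre Rpl5flox/+ on Kit+ polysomes, where 1 VavCre library was set against 3 and 1.82% of all genes passed, with 1 gene under an unadjusted p of 0.05 and 0 called by limma-voom. That gene was Tcf3, at 975 against 1411 to 2196 (-0.93, adjusted p = 0.404), named after its value was seen, and without the libraries under 2 M reads it passed (-1.13, adjusted p = 0.0106), with 1 library against 2 and a spread that comes mostly from the other groups. For VavCre Rps19flox/+ on Ter119+ polysomes, where 0.801% of all genes passed, limma also called 0, with 1 gene under an unadjusted p of 0.05 and 1 called by limma-voom, and that gene was Tal1 both times, at 16267 to 23053 against 5093 to 16584, which overlap (1.15, CI 0.26 to 2.05, adjusted p = 0.244). Cbfa2t3 had a larger change, at 597.5 to 1105 against 102.8 to 401.4 without overlap (2.14, CI -0.77 to 5.05, adjusted p = 0.523). Its controls rested on 25, 143 and 12 reads. With a replicate block it passed (adjusted p = 0.0471), as did Tal1 (0.0459). Without the Ter119+ polysome library under 2 M reads Cbfa2t3 passed as well (0.0312), with the same change of 2.14. That library is labelled VavCre Rpl5flox/+ replicate 3, so no library of the Rps19 line was left out. It enters this fit through the shared spread.

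Change in polysome loading, which is the polysome minus cytoplasm difference of a pool compared between genotypes, was called for none of the genes by limma or limma-voom. In the Rps19 line in Kit+ cells 4 genes had an unadjusted p under 0.05. Gfi1b loading was -0.96 to -0.58 with VavCre against 0.35 to 0.82 without it, a difference of -1.25 ± 0.32 (log2, SE, adjusted p = 0.0573), and that of Lyl1 was -0.59 to -0.28 against 0.24 to 0.58 (-0.81, adjusted p = 0.149). For Cbfa2t3 the 3 VavCre pools were at -1.94 to -1.40 against -0.65 to 0.13 (-1.33, adjusted p = 0.111), whereas Tal1 loading was less negative with VavCre, at -0.80 to -0.36 against -1.90 to -1.51 (1.21, adjusted p = 0.156). In all 4 the pools did not overlap. The polysome libraries held 10.8, 24.4 and 37.6 M reads with VavCre and 1.01, 7.17 and 1.83 M without it. Each VavCre library was thus deeper than each control, and the part of depth was not tested. Over all genes the median was 1.19 and 5.25% passed, and the 3 lower genes were at the 5.89, 10.5 and 5.31 percentile. Tal1 was at the 50.4 percentile, so its change was that of a typical gene. The Gfi1b difference passed without the polysome library of Rps19flox/+ Kit+ replicate 2 (-1.33, adjusted p = 0.0314), which leaves 2 controls of 1.01 and 1.83 M reads. In those controls Cbfa2t3 rested on 12 and 21 polysome reads. In Ter119+ cells 0 genes had an unadjusted p under 0.05 in the Rps19 line, where 0.00918% of all genes passed, and 1 did in the Rpl5 line, where 0.0184% passed. That was Lmo2, at -2.78 to -1.48 in the labelled VavCre pools against -0.22 and -0.20 (-1.94, adjusted p = 0.385), again named after its value was seen. The change stood at the 31.5 percentile of all genes, so falls of this size were common. The pool at -2.78 rested on 27 polysome reads of Lmo2 in a library of 1.02 M.

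**Figure D4:**
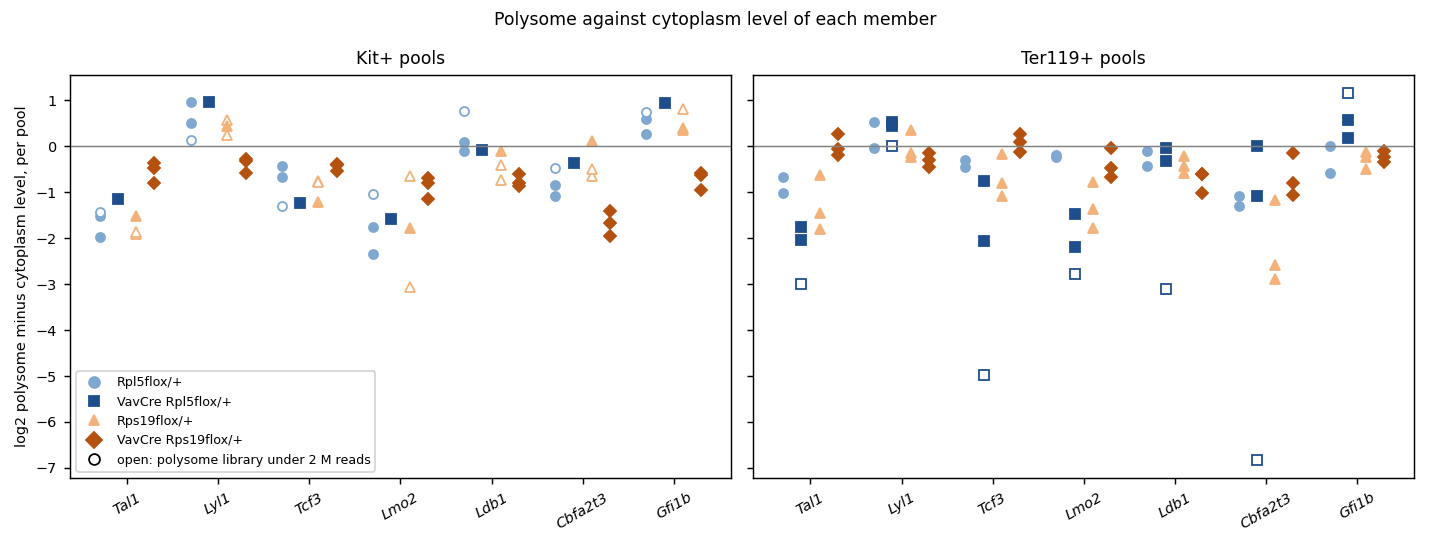
Log2 polysome minus cytoplasm level of each gene in each pool, by genotype, in Kit+ and Ter119+ cells; open symbols mark polysome libraries under 2 M reads. In the Kit+ panel the 3 VavCre Rps19flox/+ pools lie below the 3 Rps19flox/+ pools for Lyl1, Cbfa2t3 and Gfi1b and above them for Tal1. That Tal1 change was at the 50.4 percentile of all genes.

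The remaining genes of the complex and its surroundings were followed in 8 lists, 39 genes in all. Each count below is to be read against the share of all genes tested that passed in that direction. In control Ter119+ against Kit+ cytoplasm 35.8% were higher and 42.7% lower. With Rpl5 20.8% were higher and 16.4% lower in Kit+ cells, and 35.3% and 30.1% in the labelled Ter119+ libraries. With Rps19 27.6% were higher and 26.1% lower in Kit+ cells, and 12.5% and 13.3% in Ter119+ cells. Among GATA factors, Gata1, which the complex joins in erythroid cells, and its cofactor Zfpm1 fell in the labelled VavCre Rpl5flox/+ Ter119+ cytoplasm by 1.53 (adjusted p = 3.31e-07) and 2.36 (adjusted p = 8.01e-08), and the early factor Gata2 rose there by 2.29 (adjusted p = 5.81e-06). In VavCre Rpl5flox/+ Kit+ cells Gata2 rose by 0.93 (adjusted p = 0.00157) and Zfpm1 fell by 0.84 (adjusted p = 0.00174), and with VavCre Rps19flox/+ in Kit+ cells Zfpm1 rose by 1.33 (adjusted p = 3.35e-05). The 8 erythroid target genes, which include 4 of the maturing erythroid markers, all rose from Kit+ to Ter119+ controls (median log2 difference 4.57) and all fell with Rpl5 in Kit+ cells (median -1.42, with Epb42 at -2.10) and in the labelled Ter119+ libraries (median -2.46, with Klf1 at -2.19). With Rps19 in Kit+ cells 2 of the 8 rose, among them Ank1 (0.75, adjusted p = 0.000341), and in Ter119+ cells none rose. These counts are of rises only, and 2 of 8 is near the 27.6% of all genes higher there. The maturing erythroid marker sums, which include 4 of the 8 genes, were lower with VavCre Rps19flox/+ in both cell types. They were at 50512 to 86650 against 88620 to 154631 in Kit+ and at 5615703 to 6079292 against 9246029 to 9849622 in Ter119+ cytoplasm.

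Gfi1 is the paralog of Gfi1b, and Meis1, Rgs18 and Tgfbr3 are known targets of Gfi1b repression. Of these 4, all were lower in Ter119+ than in Kit+ controls (median -1.75), 3 rose with Rpl5 in Kit+ cells (Gfi1 by 1.72, Rgs18 by 1.47) and 4 rose in the labelled Ter119+ libraries (Rgs18 by 3.12, Gfi1 by 3.03), where Gfi1b itself was 3.09-fold lower. With Rps19 in Kit+ cells, where Gfi1b was 1.85-fold higher, 3 fell (Gfi1 by 1.21 and Meis1 by 1.07) and 1 rose, and in Ter119+ cells Tgfbr3 rose by 1.51 (adjusted p = 0.00113) and no other passed. Meis1 is also 1 of the progenitor markers, and Gfi1 is known as a granulocyte regulator. The granulocyte and monocyte marker sums above moved in the same directions as the called changes of Gfi1 with VavCre. With Rps19 these sums fell, while 1 gene rose in Kit+ cells and Tgfbr3 in Ter119+ cells. Neither the part of cell composition nor that of Gfi1b in these changes was tested. Runx1, Erg and Fli1, which share stem-cell enhancers with Tal1, Lyl1 and Lmo2, were all lower in Ter119+ controls, 2 rose with Rpl5 in each cell type (Fli1 by 0.87 in Kit+ and 1.58 in labelled Ter119+ libraries) and 3 fell with Rps19 in Kit+ cells (Fli1 by 1.40), with none called in Ter119+ cells.

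Id proteins bind E proteins and keep them from DNA. The 3 of 4 Id genes that were tested all fell with Rps19 in both cell types, Id3 by 1.49 in Kit+ (adjusted p = 5.87e-05) and 1.95 in Ter119+ cells (adjusted p = 0.000187) and Id2 by 1.11 and 1.70. With Rpl5 only Id1 in Kit+ cells (0.60, adjusted p = 0.0075) and Id2 in labelled Ter119+ libraries (0.80, adjusted p = 0.0188) passed, both higher. Of the other E proteins Tcf4 fell with Rps19 in Kit+ cells by 1.14 (adjusted p = 0.000114) and rose in the labelled Rpl5 Ter119+ libraries by 1.37 (adjusted p = 0.00705), and Tcf12 was called in none of the 4 cytoplasm genotype comparisons. Among the LIM and single-stranded-DNA-binding partners, Ssbp3, a cofactor of Ldb1, fell with Rpl5 by 0.44 in Kit+ and 1.29 in labelled Ter119+ cells, whereas Lmo4 rose by 0.57 and 1.82, and with Rps19 Ssbp4 rose by 0.63 and 0.64 and Lmo1 fell by 1.31 in Kit+ cells. The corepressor list had 1 of 8 genes called with Rpl5 in Kit+ cells (Irf2bp2, higher by 0.32) and 7 of 9 in labelled Ter119+ libraries, 5 of them lower, among them Runx1t1, an ETO-family relative of Cbfa2t3 (-3.33, adjusted p = 5.02e-06). The 2 higher included Irf2bp2 (1.67, adjusted p = 3.42e-06), and the 7 of 9 are near the 65.5% of all genes called there. With Rps19 it had 5 of 8 called in Kit+ cells, 4 higher (Hdac3 by 0.39 and Kdm1a by 0.34), and 2 of 9 in Ter119+ cells, both lower (Runx1t1 by 1.83 and Hdac1 by 0.34). Over all 8 lists the median log2 change was -0.07 with Rpl5 and -0.04 with Rps19 in Kit+ cells and 0.01 and -0.16 in Ter119+ cells.

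Across the 24 cytoplasm libraries, which share the cell-type difference and their control groups, Tal1, Lmo2 and Lyl1 moved together (Pearson r of deposited log2 values 0.966 for Tal1 and Lmo2, 0.951 for Tal1 and Lyl1 and 0.975 for Lmo2 and Lyl1). Gfi1b followed Tal1 at r = 0.854 and Cbfa2t3 at 0.823, while Tcf3 had 0.376 and Ldb1 -0.303 with Tal1 and 0.667 with each other. Over the 12 control libraries alone these 3 values were 0.692, -0.744 and -0.483, so the sign for Tcf3 and Ldb1 turned. Among 8945 genes with a mean of at least 50 normalized counts, those most like Tal1 were Cpox (0.996), Slc43a3 (0.995) and Ank1 (0.995). By likeness to Tal1 over the 24 libraries Lmo2 ranked 314, Lyl1 550, Gfi1b 1665 and Cbfa2t3 1876, so such high r values were common. The genes most like Lmo2 were Otud5, Ube2e3 and Odc1 (0.995 for Otud5). For Lyl1 they were Ube2c, Aup1 and Aoc2 (0.990 for Ube2c) and for Gfi1b Tnfaip2, Rab35 and Capn15 (0.980 for Tnfaip2). For Cbfa2t3 they were Mark2, Uba1 and Bcl2l13 (0.951 for Mark2), for Tcf3 Axin1, Pola2 and Pcbp1 (0.953 for Axin1) and for Ldb1 Phc2, Mta2 and U2af2 (0.929 for Phc2). These neighbours depend on the libraries used: over the 12 control libraries alone none of a gene's 3 nearest was the same for any of the 7, and over the 8 group means 1 of 3 was the same for Tal1, Lmo2 and Cbfa2t3 and none for the others.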

How the data were processed

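The labels' protocols describe magnetic isolation of Kit+ and Ter119+ fetal liver cells, pooling by genotype, sucrose gradients and poly(A) library preparation with 100 bp paired-end reads. The deposited table holds log2 values on a variance-stabilised scale of counts over 1 size factor per library, as its values show. The submitters' processing notes name the build mm10. Aligner and counter: not given in the sources used here. Inverting the scale gave whole reads for 100% of values (largest deviation 7.2e-07, tolerance 1e-06).

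Two-sided limma tests (version 3.58.1, R 4.3.3, eBayes with a mean trend) were run on the deposited log2 values of genes averaging at least 10 normalized counts, with Benjamini-Hochberg adjustment over all genes and a threshold of 0.05. The 4 genotypes of a cell type and fraction shared 1 estimate of the spread. Fractions were compared within the pool given by the labels. Pairing by replicate number was checked between VavCre and control libraries of the same cell type and fraction. All correlations of deviations were above 0.1 only for Rpl5 in Kit+ and Ter119+ cytoplasm (0.234 to 0.305 and 0.127 to 0.256). For Rps19 in Ter119+ cytoplasm they were 0.381, 0.028 and 0.055. Pairing of Kit+ with Ter119+ libraries was not checked, and the main fits did not use it. No replicates were copies. The fits were tested on simulated data. The genes and lists were chosen with earlier results of these data known. Named were the 7 genes, the 3 genes most like each, 2 genes by adjusted p in each list and the targeted genes, of which the text gives a subset. Alternatives were no filter, a mean of 50, log2 of the normalized count plus 1, rescaled libraries, limma-voom on the recovered reads, a replicate block, only the 2 groups compared, no libraries under 2 M reads, and leaving out each library. 1 result among the listed genes is not reported here.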

Additional observations from a re-analysis of the deposited data

Results flagged for a closer look

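The following results stood out because the change with VavCre differed, by a test of the difference itself, between the lines or between the cell types. All are log2 differences in cytoplasm. For the Rpl5 change minus the Rps19 change in Kit+ cells they were -1.34 for Tal1, -0.76 for Cbfa2t3, -0.74 for Tcf3 and -1.41 for Gfi1b. In Ter119+ cells, with the labelled VavCre Rpl5flox/+ libraries, they were -2.41 for Tal1, -1.31 for Lmo2, -1.19 for Lyl1, -1.26 for Cbfa2t3, -0.69 for Tcf3 and -1.41 for Gfi1b. For the Rpl5 change in Ter119+ minus that in Kit+ cells they were -1.70 for Tal1, -1.65 for Lmo2, -1.98 for Lyl1, -0.92 for Cbfa2t3, -0.39 for Tcf3 and -1.11 for Gfi1b. For the Rps19 change in Ter119+ minus that in Kit+ cells they were -0.81 for Lyl1, -0.44 for Tcf3 and -1.11 for Gfi1b.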

How the results depend on the processing

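Over the 7 genes, 19 comparisons and all alternatives, 1786 of the single-gene results kept their side of the threshold, 34 came to pass, 70 no longer passed and 0 reversed. Among Ter119+ polysomes the library under 2 M reads is labelled VavCre Rpl5flox/+ replicate 3. It is outside the Rps19 contrast and enters that fit through the shared spread. Counts of genes called out of 7 moved by over 1.5 times as follows, the cause being not tested. Without the libraries under 2 M reads they became 1 in place of 0 for Rpl5 on Kit+ polysomes, 2 in place of 1 for Rps19 on Kit+ polysomes (3 libraries against 1) and 1 in place of 0 for Rps19 on Ter119+ polysomes. With only the 2 groups compared they became 2 in place of 4 for Rpl5 on Ter119+ polysomes, 2 for Rps19 on Kit+ polysomes and 3 in place of 1 for Rps19 in Ter119+ cytoplasm. With limma-voom they became 2 for Rps19 on Kit+ polysomes, 2 for Rps19 in Ter119+ cytoplasm and 1 for Rps19 on Ter119+ polysomes. Rescaled libraries gave 2 for Rps19 in Ter119+ cytoplasm and 2 in place of 4 for control Ter119+ polysomes against cytoplasm. Without a filter the counts were 2 for Rps19 on Kit+ polysomes and 1 for its Kit+ loading, which log2 of the count plus 1 also made 1. The replicate block gave 3 for Rps19 in Ter119+ cytoplasm, where only replicate 1 had a correlation of deviations above 0.1. It gave 2 for Rps19 on Ter119+ polysomes, where no replicate had. In the paired Rpl5 comparisons in cytoplasm it changed no call (4 and 6 genes).

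Leaving out each library in turn gave 2 to 4 genes for Rpl5 in Kit+ cytoplasm, 2 to 5 for Rpl5 on Ter119+ polysomes, 0 for Rps19 in Ter119+ cytoplasm, 3 to 4 and 2 to 3 for polysomes against cytoplasm in control Kit+ and Ter119+ cells, and 0 to 1 for Rps19 loading in Kit+ cells. Over all genes, counts without the libraries under 2 M reads went from 192 to 1916 for Rpl5 on Kit+ polysomes (21 at a mean of 50), 1406 to 2205 for Rpl5 on Ter119+, 1041 to 2039 for Rps19 on Kit+ and 85 to 673 for Rps19 on Ter119+ polysomes. For Rps19 on Ter119+ polysomes the library left out belongs to the Rpl5 line. Rescaling took control Ter119+ polysomes against cytoplasm from 2823 to 1714, and limma-voom took Rps19 loading in Ter119+ cells from 1 to 69. Depth and 1 to 3 pools a group limit the polysome results. The fit without the only VavCre Rpl5flox/+ Kit+ polysome library was not run.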
